A study of Mus musculus with 4 samples.

Results

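The clustered histone genes of the mouse are the replication-dependent genes that the mm9 gene annotation names Hist1h, Hist2h, Hist3h or Hist4. Protein-coding genes were taken by these symbols alone, which gave 67 of the 22367 protein-coding genes. The symbols use no measured value, so position at the nuclear envelope (NE) did not decide which genes the rule took. The group itself was chosen with earlier results of these data known. The genes encode the linker histone H1 (6 genes) and the core histones H2A (19 genes), H2B (18 genes), H3 (11 genes) and H4 (13 genes). They lie on 4 chromosomes.

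Position was measured by DamID in primary hepatocytes, the main cell type of the liver, from WT mice and from mice with both copies of Tm7sf2 deleted (KO), all on a C57BL/6 background. Tm7sf2, also called NET47, encodes a sterol reductase of the NE and endoplasmic reticulum. In DamID a bacterial methylase, Dam, is fused to lamin B1 and marks GATC sites that come close to the NE, and Dam without the fusion controls for how open the DNA is. Hepatocytes of animals aged 12 to 16 weeks were exposed for 24 h to a lentivirus carrying Dam-LaminB1 or Dam only, which gave 4 libraries, 1 for each construct and genotype.

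Each library held the pooled DNA of 4 mice. There was therefore no replicate library, the values below carry no error between animals, and no test between the genotypes was made. Neighbouring histone genes also share the same domains, so genes are not replicates either. The deposited lists name the lamina-associated domains (LADs), the stretches called as being at the NE, 8107 in WT and 16076 in KO, with a median length of 40.81 kb in WT and 38.81 kb in KO. They give borders alone, with no measured strength, so the depth behind a border is unknown from the files, and the study states fewer usable reads for KO than for WT. The study also states a shorter average LAD in KO and about the same genome coverage for each genotype. The larger number of KO LADs thus did not mean more of the genome in LADs. Neither the loss of Tm7sf2 nor the hepatocyte identity of the cells can be checked from lists of intervals.

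Replication-dependent histone genes are used when DNA is copied, because each new stretch of chromatin needs a full set of histones. They are short, mostly without introns, present in many copies, and their mRNAs end in a stem-loop in place of a poly(A) tail, which is bound by the stem-loop binding protein. In dividing cells the clusters gather at the histone locus body, a nuclear body built around the coactivator Npat. Hepatocytes of an adult liver divide little, but the cells used here were isolated and cultured with epidermal growth factor, insulin and dexamethasone. Whether they divided in culture cannot be read from the lists.

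The stem-loop was searched for because it is the feature that the mRNAs of these genes share. The letters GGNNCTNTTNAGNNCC on the sense strand occurred within 100 bases after the stop codon in 61 of the 67 clustered histone genes (91%). The same letters occurred in 6 of 21843 other genes with a coding sequence (0.0275%). Among them were H2afx, which encodes a variant of H2A, and 1700014N06Rik, which a later annotation lists as the histone gene H2bfm. Each sequence below is from the NCBIM37 assembly, the same assembly as mm9, and is written 5′ to 3′ on the strand of the gene. The capitals mark the searched letters.
Hist1h2ak at chr13:21845246-21845271 (minus strand): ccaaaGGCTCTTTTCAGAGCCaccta
Hist1h4j at chr13:21827301-21827326 (plus strand): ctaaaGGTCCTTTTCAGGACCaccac
Hist1h1b at chr13:21871701-21871726 (minus strand): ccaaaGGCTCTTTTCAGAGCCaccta
Hist1h2ap at chr13:21924893-21924918 (minus strand): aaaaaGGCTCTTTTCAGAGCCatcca
Hist4h4 at chr6:136752514-136752539 (minus strand): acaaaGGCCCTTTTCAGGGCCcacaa
Hist1h2ak, Hist1h4j and Hist1h2ap lay in a KO LAD, and Hist1h1b and Hist4h4 lay in no LAD. The stretch printed for Hist1h2ak was the same as that of Hist1h1b. The letters were found in 8 of the 9 genes that lay in a KO LAD and in 53 of the 58 that lay in none. The 6 genes without these letters in the window were Hist2h2be, Hist2h2bb, Hist1h2an, Hist1h3g, Hist1h4a and Hist1h2al.

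Genes were classed after the study's terms by overlap of at least 1 base between the gene's span, from its first to its last annotated base, and a differential region (DR), a stretch of at least 10 kb that is a LAD in only 1 genotype. IP genes (interior in WT, peripheral in KO) overlapped a KO-only DR, PI genes (peripheral in WT, interior in KO) a WT-only DR, and AMB genes both. Of the genes in no DR, PP genes overlapped LADs of both genotypes and all others were II. An II gene can thus lie in a LAD of 1 genotype where the stretch particular to it is shorter than 10 kb, but no II gene among the clustered histone genes overlapped a LAD.

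No clustered histone gene overlapped a WT LAD, against 30.4% of all protein-coding genes. In KO, 9 of the 67 genes (13.4%) overlapped a LAD, against 41.7% of all protein-coding genes. These 9 genes were IP and the other 58 (86.6%) were II, with no PI, PP or AMB gene. These counts moved with the setting: a window of 100 kb around the middle of each gene gave 20 IP genes and 14 genes meeting a WT LAD, and LADs joined where at most 50 kb apart gave 19 IP genes and 1 gene meeting a WT LAD. No share over all genes is given for these settings, so their counts have no background beside them. With overlap of at least 1 base, the shares over all protein-coding genes were 17.1% IP, 56.6% II, 5.43% PI, 17.9% PP and 2.96% AMB. With that overlap, the 13.4% of IP histone genes was below the share of all protein-coding genes. Among the genes of the genome that lay in no WT LAD, 19.6% overlapped a KO LAD, again a larger share than the 13.4% of the histone genes.

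The median span of a clustered histone gene was 530 bp, against 15427 bp over all protein-coding genes, and the part of length in the counts was not tested. Of the 1846 other genes of at most 1 kb, 67.4% were in WT LADs and 67.7% in KO LADs, 27.2% were II and 6.45% were IP. Their median span was 906 bp, and which gene families make up this group is not given, so its shares may not stand for short genes in general. Of the 16087 other genes no longer than the longest histone gene (Hist1h2be, 37.383 kb), WT LADs held 27.6% and KO LADs 35.8%, 62.2% were II and 12.3% were IP. Against both groups of genes the clustered histone genes had the larger share of II and the smaller share in LADs of either genotype. Their 13.4% of IP genes was above the 6.45% and close to the 12.3%. It rested on 9 genes, and 8 were IP when only the start of the gene was asked.

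**Figure D1:**
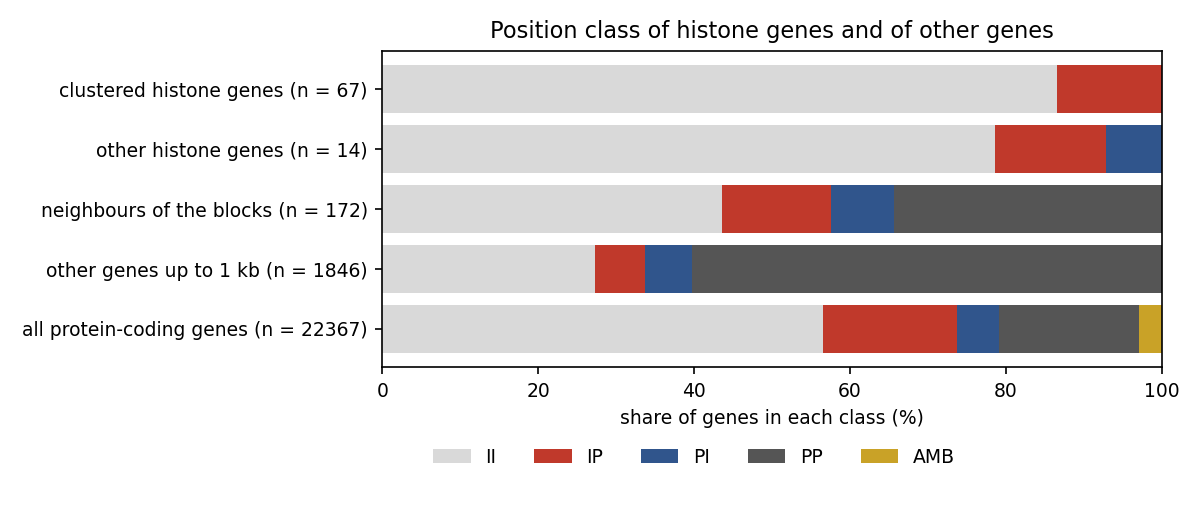
Share of genes in each position class (horizontal axis, percent) for the 67 clustered histone genes, 14 other histone genes, 172 protein-coding neighbours of the blocks (within 500 kb or between blocks, those between Hist1 blocks 4 and 5 left out), other genes of at most 1 kb and all protein-coding genes. H2afj is counted among the other histone genes and among the neighbours. The bar of the clustered histone genes holds II (86.6%) and IP (13.4%) and no other class, whereas 27.2% of the other genes of at most 1 kb were II.

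Genes separated by less than 100 kb were joined into blocks, which gave 8: 5 of Hist1 genes on chromosome 13, and 1 each of Hist2 on chromosome 3, Hist3 on chromosome 11 and Hist4 on chromosome 6. Each block lay in a stretch free of WT LADs. The stretch around Hist1 blocks 1 and 2 was 350.714 kb long, that around Hist1 blocks 3 and 4 was 1666.41 kb, that around Hist1h2al was 294.058 kb, that around Hist2 was 2915.91 kb and that around Hist3 was 3845 kb. The shortest, 44.362 kb, surrounded the single gene Hist4h4. All 9 IP genes were among the 55 Hist1 genes, and the 12 genes of Hist2, Hist3 and Hist4 were II. These counts are read against 17.1% IP and 56.6% II over all protein-coding genes, and whether the clusters differ was not tested.

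**Figure D2:**
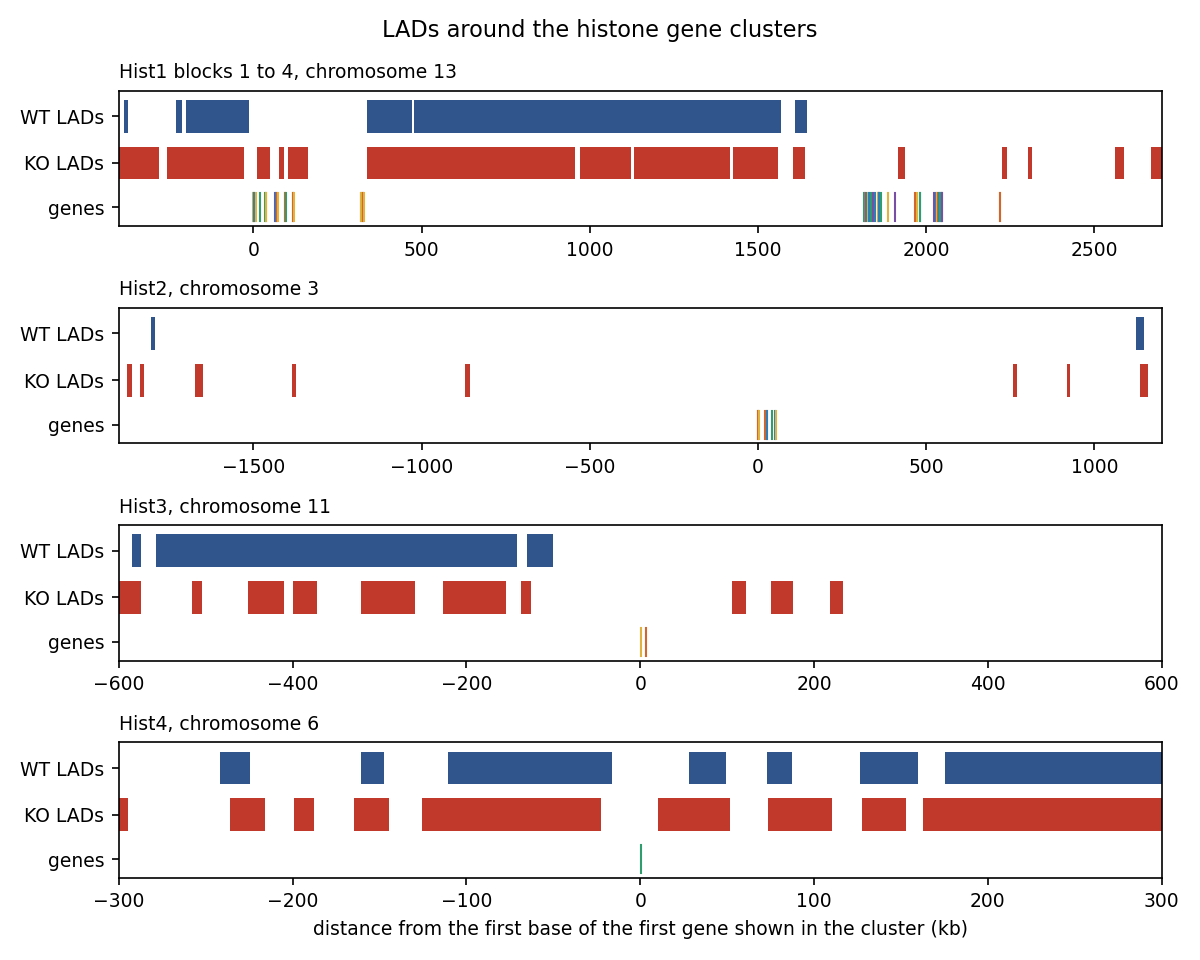
LADs of WT (blue) and KO (red) around the histone gene clusters, with the histone genes as vertical ticks coloured by role as in the map of Hist1 block 1, and distance from the first gene of each cluster on the horizontal axis (kb). In the top panel WT LADs fill most of the stretch between Hist1 blocks 2 and 3 and stop on both sides of the genes, and KO LADs alone enter blocks 1 and 3.

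Hist1 block 1 (chr13:21807632-21929399, 121.768 kb) held 18 genes and no WT LAD. In KO, 3 LADs covered 71.445 kb of it (58.7%), and 8 of its 18 genes (44.4%) were IP. The first, 36.118 kb long, held Hist1h4j, Hist1h4k, Hist1h2ak and Hist1h2bn. The second, 17.38 kb long, met only Hist1h2bq. The third, 59.128 kb long, held Hist1h4n, Hist1h2ap and Hist1h2br and ran on past the block. None of them touched a WT LAD, and the nearest WT LAD was 23.804 kb away from the first, 86.826 kb from the second and 115.743 kb from the third. They were therefore separate from the WT domains. Of all KO LADs, 26.7% shared no base with a WT LAD. Over all protein-coding genes 17.1% were IP. Of the 21 protein-coding neighbours within 500 kb before the block, 9 were IP (42.9%), so a high share of IP genes was not particular to the histone genes here. Of these neighbours 52.4% overlapped a WT LAD and 85.7% a KO LAD.

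The borders of these domains are shown because DamID reads the genome in fragments between GATC sites, so a domain begins and ends at such a site. All sequences are from chromosome 13 of NCBIM37, plus strand, with the site in capitals.
The first KO LAD, lower border, chr13:21819494-21819533: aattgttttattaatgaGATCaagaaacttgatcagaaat
The first KO LAD, upper border, chr13:21855612-21855651: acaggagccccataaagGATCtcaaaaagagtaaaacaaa
The second KO LAD, lower border, chr13:21882516-21882555: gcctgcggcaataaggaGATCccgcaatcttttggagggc
The second KO LAD, upper border, chr13:21899896-21899935: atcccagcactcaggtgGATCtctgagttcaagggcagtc
The third KO LAD, lower border, chr13:21911433-21911472: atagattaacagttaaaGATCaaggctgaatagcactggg
The third KO LAD, upper border, chr13:21970561-21970600: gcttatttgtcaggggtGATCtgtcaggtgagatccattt
Each border had its GATC site at the same offset. The first domain spanned 81 GATC sites, the second 41 and the third 148. A histone gene itself held few: the median was 1 site per span, and Hist1h1b, Hist1h1e, Hist1h1a and Hist1h2aa held none. The calls for single genes thus rest mostly on fragments that reach beyond the gene.

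Hist1h4j and Hist1h4k encode the core histone H4. Hist1h4j lay 31.193 kb from the nearest WT LAD and 7.389 kb inside the first KO LAD. Hist1h4k lay 46.353 kb from a WT LAD and 13.257 kb inside the KO LAD. Hist1h2ak and Hist1h2bn encode H2A and H2B, start 215 bp apart and are read away from each other. Hist1h2ak lay 49.554 kb from a WT LAD and 9.855 kb inside the KO LAD, and Hist1h2bn lay 50.282 kb from a WT LAD and 9.259 kb inside. All 4 genes had 100% of their span in a KO-only DR.

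In the third KO LAD, the H4 gene Hist1h4n lay 127.926 kb from a WT LAD, the H2A gene Hist1h2ap 129.216 kb and the H2B gene Hist1h2br 129.902 kb. These were the IP genes farthest from a WT LAD. They lay 12.183 kb, 13.473 kb and 14.159 kb inside the KO LAD, and 100% of each span was in a KO-only DR. Hist1h2bq, an H2B gene with a span of 3788 bp and an intron, was the exception among the IP genes: 43.2% of its span lay in the second KO LAD, while its coding part and its start, 2.153 kb away, did not.

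The other 10 genes of block 1 were II and close to a KO LAD. Hist1h2bl, Hist1h2ai, Hist1h3h and Hist1h2bm, ahead of the first KO LAD, lay 11.502 kb, 10.193 kb, 9.53 kb and 5.078 kb from it. Between the first and the second KO LAD, the H1 gene Hist1h1b lay at 10.042 kb, the H3 gene Hist1h3i at 7.27 kb, the H2A gene Hist1h2an at 3.449 kb and the H2B gene Hist1h2bp at 1.454 kb. Between the second and the third, Hist1h2ao lay at 2.321 kb and Hist1h4m at 3.7 kb. For these 10 genes the distance to a WT LAD ran from 11.922 kb at Hist1h2bl to 107.905 kb at Hist1h4m. Over the 18 genes the median distance was 77.558 kb in WT and 1.89 kb in KO.

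**Figure D3:**
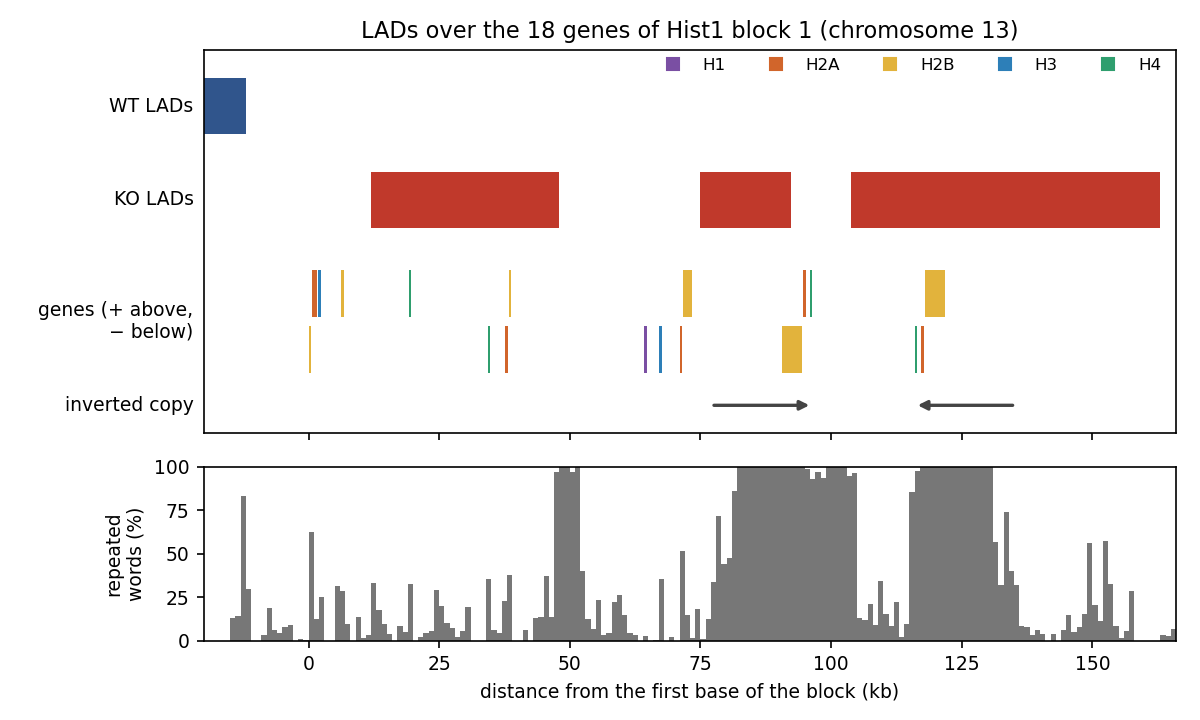
Hist1 block 1 with LADs of WT (blue) and KO (red), its 18 genes to scale by strand and coloured by role, the 2 arms of the inverted copy as arrows and, below, the share of 32-base words per kb that occur more than once in the genome (percent). The horizontal axis is the distance from the first base of the block (kb). The 3 KO LADs leave the first 4 genes and the 6 genes around the second LAD outside, and repeated words reach 100% in the inverted copy and just after the first KO LAD.

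Part of block 1 is present in 2 near-identical copies in opposite directions. Arm 1 (chr13:21884421-21904278, 19.858 kb) carries Hist1h2bq, Hist1h2ao and Hist1h4m, and arm 2 (chr13:21923401-21943168, 19.768 kb) carries Hist1h4n, Hist1h2ap and Hist1h2br. The arms were 98.6% identical over 19891 aligned bases, with 270 differences. KO LADs covered 78% of arm 1 and 100% of arm 2. Hist1h2bq and Hist1h2br had 0 differences over 3788 bp, and both were IP. Hist1h2ao and Hist1h2ap had 0 differences over 519 bp, yet Hist1h2ao was II and Hist1h2ap was IP. Likewise, the coding parts of Hist1h4m (II) and Hist1h4n (IP) had 0 differences over 309 bp.

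The stretch between the starts of the H2A and the H2B gene, which holds the promoters of both, is shown for the pair in the first KO LAD and for the copied pairs. The sequences are from NCBIM37, with the gene names in the order in which they flank the stretch, and the capitals mark the letters CCAAT on either strand.
Hist1h2ak (left) to Hist1h2bn (right), chr13:21845777-21845991, plus strand, in a KO LAD: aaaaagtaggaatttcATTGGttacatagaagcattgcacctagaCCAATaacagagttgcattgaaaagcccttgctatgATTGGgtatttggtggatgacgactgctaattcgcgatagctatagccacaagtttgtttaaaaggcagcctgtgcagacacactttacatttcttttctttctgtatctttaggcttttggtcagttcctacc
Hist1h2ao (left) to Hist1h2bq (right), chr13:21902069-21902235, minus strand, 2.154 kb from a KO LAD: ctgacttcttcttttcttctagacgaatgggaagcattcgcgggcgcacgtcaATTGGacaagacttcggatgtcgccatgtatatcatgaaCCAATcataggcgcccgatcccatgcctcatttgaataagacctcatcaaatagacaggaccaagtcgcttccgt
Hist1h2ap (left) to Hist1h2br (right), chr13:21925445-21925611, plus strand, in a KO LAD: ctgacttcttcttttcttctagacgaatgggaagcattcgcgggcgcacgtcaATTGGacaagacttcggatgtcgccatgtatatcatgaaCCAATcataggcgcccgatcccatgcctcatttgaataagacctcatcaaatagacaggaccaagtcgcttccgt
The last 2 sequences, of 167 bp each, had 0 differences, and 1 lay in a KO LAD while the other lay outside.

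A read from a sequence present in identical copies cannot be assigned to one of them. In block 1, 39% of all 32-base words occurred more than once in the genome. The share was 13.9% in the first KO LAD, 76.2% in the second and 40.4% in the third, and 89.2% of the second lay in arm 1. Inside the KO LADs of the block it was 38.5% and outside them 39.8%. With the inverted copy left out it was 16.7% inside the KO LADs and 34.3% outside them. How the deposited lists treated such reads is not given in the sources used here, so the calls for the 6 genes of the inverted copy are uncertain, and the part of repeated sequence in them was not tested. Without these 6 genes, 5 of 61 were IP. Over single genes the median share of repeated words was 88% for the 9 IP genes, from 52.1% to 100%, and 50.8% for the 58 II genes, from 0% to 100%.

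Hist1 block 2 (chr13:22126982-22135545, 8.564 kb) held 5 genes, Hist1h2ah, Hist1h2bk, Hist1h4i, Hist1h2ag and Hist1h2bj, and no LAD of either genotype. Distances ran from 10.88 kb at the H2B gene Hist1h2bj to 18.913 kb at the H2A gene Hist1h2ah in WT, and from 10.443 kb to 18.476 kb for the same genes in KO. In both genotypes a LAD began just beyond the block, at chr13:22146425 in WT and at chr13:22145988 in KO. The genotypes were thus close to each other here, unlike in block 1.

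Between blocks 2 and 3 lay 1487.37 kb of which 84.3% was in WT LADs and 82% in KO LADs. This stretch holds 38 protein-coding genes, many of them vomeronasal receptor genes, which serve the detection of pheromones; 33 were PP and 5 II. The histone genes on either side lay outside these domains in both genotypes. In contrast, the 197.582 kb between blocks 1 and 2 was free of WT LADs, 20.8% of it lay in KO LADs, and its 3 genes (Zfp184, Pom121l2 and Prss16) were II.

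Hist1 block 3 (chr13:23622919-23856283, 233.365 kb) was the largest, with 29 genes, and no gene of it was IP. In WT its genes lay between 170.236 kb (the H4 gene Hist1h4h) and 402.854 kb (the H1 gene Hist1h1a) from a LAD, with a median of 222.928 kb. In KO the distances ran from 9.862 kb (Hist1h1e) to 110.959 kb (Hist1h1a), with a median of 80.716 kb. The nearest KO LAD of its genes was a single one inside the block (chr13:23724233-23744578, 20.346 kb, 56 GATC sites), which overlapped no protein-coding gene and lay 271.55 kb from the nearest WT LAD. It covered 8.72% of the block, and 56.4% of its 32-base words occurred more than once in the genome.
KO LAD inside block 3, lower border, chr13:23724213-23724252, plus strand: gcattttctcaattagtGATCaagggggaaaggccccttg
KO LAD inside block 3, upper border, chr13:23744559-23744598, plus strand: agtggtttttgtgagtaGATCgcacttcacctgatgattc
As above, the capitals mark the GATC site at each border. The nearest genes were the linker histone gene Hist1h1e, 9.862 kb away in KO and 260.941 kb from a LAD in WT, and the H2B gene Hist1h2be, 11.24 kb away in KO and 222.928 kb in WT.

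The other H1 genes of block 3 lay farther from this KO LAD. Hist1h1d lay 73.512 kb from a KO LAD, Hist1h1t, which is made in the testis, 43.102 kb, Hist1h1c 86.098 kb and Hist1h1a 110.959 kb. Their distances in WT were 194.218 kb, 334.997 kb, 377.993 kb and 402.854 kb. All 4 were nearer to a LAD in KO and none was in one.

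Hist1 block 4 holds Hist1h2ba and Hist1h2aa, an H2B and an H2A gene of the germ line that are read away from each other. In WT they lay 572.954 kb and 573.648 kb from a LAD. In KO they lay 8.076 kb and 7.381 kb from one, a LAD of 13.964 kb that was 581.418 kb from the nearest WT LAD.

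Hist1h2al (chr13:51298057-51298434) stands alone on chromosome 13, far from the other Hist1 genes. It was IP, with 100% of its span in a KO-only DR, 16.913 kb from a WT LAD and 29.375 kb inside a KO LAD of 78.195 kb. Unlike in block 1, this KO LAD (chr13:51268682-51346876) overlapped a WT LAD (chr13:51315347-51404469, 89.123 kb): 40.3% of the KO LAD was in WT LADs, and 41.3% of the WT LAD was in KO LADs. The KO LAD began before the WT LAD and ended inside it. Hist1h2al is listed as a transcribed pseudogene in a later annotation (RefSeq, GRCm38.p6), and it had no stem-loop letters after its stop codon. Without it, 8 of the remaining 66 genes were IP.

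The Hist2 block (chr3:96023839-96082924, 59.086 kb) held 9 genes, 4 of H2A and the others of H2B, H3 and H4. It was the farthest from LADs in both genotypes, with distances from 1064.02 kb (Hist2h2bb) to 1122.71 kb (Hist2h2ab) in WT and from 699.842 kb to 758.535 kb for the same genes in KO. Its 18 neighbours before and 17 after, within 500 kb, were all II. Hist2h2aa1 and Hist2h2aa2, which encode the same H2A protein, were II. They had 100% of their words repeated, as had Hist1h2bq, Hist1h2ao, Hist1h2ap and Hist1h2br of the inverted copy.

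Hist3h2ba and Hist3h2a, of H2B and H2A, lay 100.241 kb and 106.015 kb from a WT LAD, on one side of the block, and 105.396 kb and 98.252 kb from a KO LAD, on the other side. Hist3h2ba was the only clustered histone gene nearer to a WT LAD than to a KO LAD. The 30 neighbours before the block, within 500 kb, were mostly in WT LADs, 13 being PI and 11 PP. Hist4h4 (chr6:136752589-136752900), the only H4 gene on chromosome 6, lay 16.409 kb from a WT LAD and 9.914 kb from a KO LAD.

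**Figure D4:**
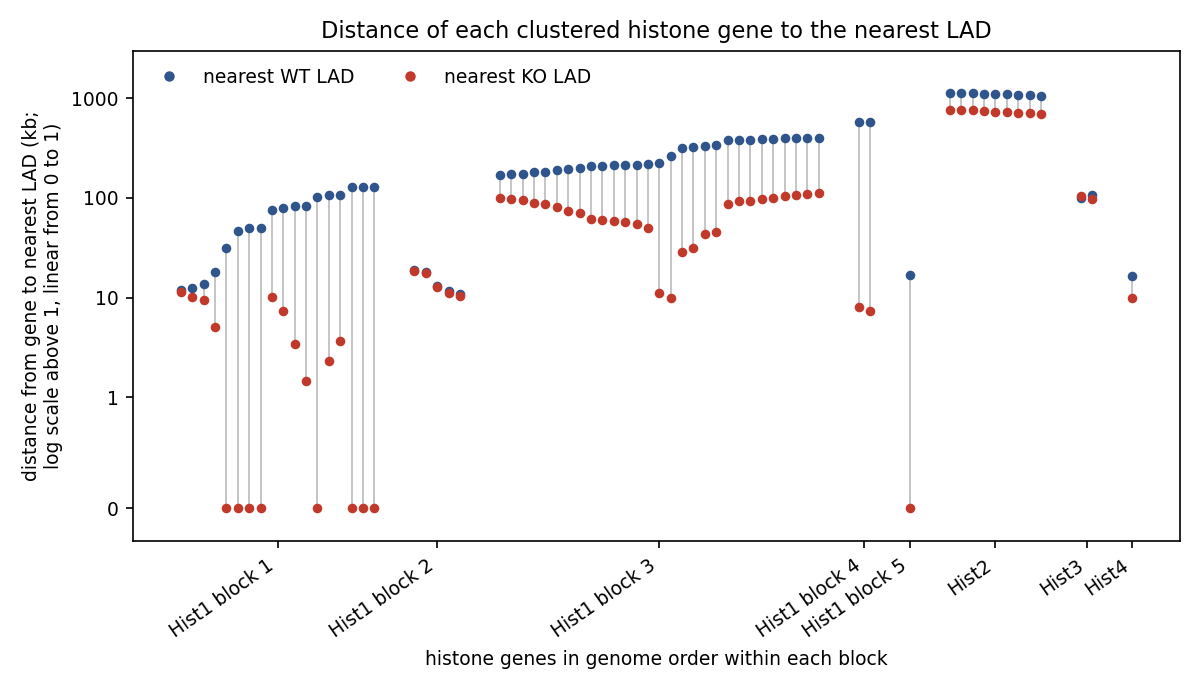
Distance of each of the 67 genes to the nearest LAD (vertical axis, kb, logarithmic above 1 and linear from 0 to 1) in WT (blue) and KO (red), with genes in genome order within each block. A grey line joins both values of a gene, and the KO value is the lower in 66 of 67 genes and 0 in the 9 IP genes.

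The 3 histone pseudogenes of the clusters, Hist2h3c2, Hist3h2bb-ps and Hist1h2aj, are no protein-coding genes and were II as well.

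Over all 67 genes, the median distance to the nearest LAD was 194.218 kb in WT and 50.374 kb in KO. Over all protein-coding genes the medians were 95.018 kb in WT and 13.273 kb in KO, so a shorter distance in KO was not particular to the histone genes. A KO LAD was nearer in 66 genes. This is read against the genome, where the KO list holds more LADs: among all genes in no WT LAD, 86.8% had a KO LAD nearer than the nearest WT LAD. Within 10 kb of a LAD lay 0 histone genes in WT and 20 in KO (29.9%), against 35% and 48.6% of all protein-coding genes. Within 100 kb the counts were 19 in WT (28.4%) and 52 in KO (77.6%), against 50.6% and 69.5% of all genes.

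By role, 3 of 13 H4 genes (Hist1h4j, Hist1h4k and Hist1h4n), 3 of 18 H2B genes (Hist1h2bn, Hist1h2bq and Hist1h2br) and 3 of 19 H2A genes (Hist1h2ak, Hist1h2ap and Hist1h2al) were IP. None of the 6 H1 genes and none of the 11 H3 genes was. These small counts are read against 17.1% IP over all protein-coding genes, and a difference between roles was not tested. Only 1 H1 gene and 2 H3 genes lie in block 1, which held 8 of the 9 IP genes, so role and place cannot be told apart in these counts.

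The IP genes of H4 encode a protein that the II genes encode too. All 13 H4 genes, in 5 blocks, encode 1 protein of 103 residues, and 10 of them were II. Of the 6 H2B genes that share 1 protein, 3 were IP (Hist1h2bn, Hist1h2bq and Hist1h2br) and 3 were II (Hist1h2bl, Hist1h2bj and Hist1h2bf). Of the 9 H2A genes that share 1 protein, only Hist1h2ap was IP. Hist1h2ak and Hist1h2al each encode a protein that no other member of the group encodes.

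Histone genes often stand in pairs read away from a shared stretch. Pairs with starts at most 1000 bp apart numbered 13, of which 12 were an H2A with an H2B gene. In 10 pairs both genes were II. In 2 pairs (Hist1h2ak with Hist1h2bn and Hist1h2ap with Hist1h2br) both were IP and the whole stretch between the starts lay in a KO LAD. The remaining pair was Hist1h2bq (IP) with Hist1h2ao (II), whose shared stretch lay in no LAD.

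Promoter letters were counted from 250 bases before to 50 bases after the start, on both strands. TATAAA occurred in 38 of the 67 genes (56.7%), against 13.3% of all other protein-coding genes, and CCAAT occurred in 57 (85.1%), against 37.8%. Of the 9 IP genes, 5 had TATAAA and 6 had CCAAT. Of the 58 II genes, 33 had TATAAA and 51 had CCAAT. The 3 IP genes without CCAAT were the H4 genes Hist1h4j, Hist1h4k and Hist1h4n. The II genes without it were the H4 genes Hist1h4m, Hist1h4i, Hist1h4h, Hist1h4f, Hist1h4b and Hist4h4, and the H3 gene Hist1h3f. The lack of CCAAT was thus mostly found in H4 genes, whether IP or II.

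Other genes of histone biology were placed for comparison. Of 14 histone genes without a cluster symbol, 11 were II (78.6%), 2 were IP (14.3%) and 1 was PI (7.14%), against 56.6% II, 17.1% IP and 5.43% PI over all protein-coding genes. H2afj among them lies beside Hist4h4 and is also counted as a neighbour of the blocks. H3f3c and H1f0 were on the list too but were not found among the protein-coding genes. The IP genes were H2afz, which encodes the variant H2A.Z and lay 30.042 kb from a WT LAD, and 1700014N06Rik, listed in the later annotation as H2bfm, 3.815 kb from one; each had 100% of its span in a KO-only DR. H1fnt, a linker histone gene of the testis, was PI, a WT-only DR covering 20.1% of it. H2afx, H3f3a, H3f3b and Cenpa were among the II genes.

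Of 17 genes for the transcription and 3′ processing of histone mRNAs, 16 were II (94.1%), including Npat (323.051 kb from a LAD in WT and 19.178 kb in KO) and Slbp (1053.57 kb and 171.581 kb), which encodes the stem-loop binding protein. Cstf2, a cleavage factor gene, was IP with 100% of its span. Of 14 histone chaperone genes, 12 were II (85.7%) and 2 were IP (14.3%). Nasp, which encodes a carrier of H1, H3 and H4, was IP with 43% of its span, 894.684 kb from a WT LAD, and Asf1a was IP with 100%, 6.458 kb from one. No PP gene was found in the 3 groups, against 17.9% of all protein-coding genes.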

How the data were processed

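Of the deposited files, 2 LAD and 2 DR lists entered, whose start and end positions (unit: base positions, other than a signal or count) the authors made by mapping reads to mm9 (the labels name BWA and limma), taking log2 ratios of Dam-LaminB1 to Dam only and segmenting them with default settings of DNAcopy. The shortest LAD in either list was 10 kb, so shorter stretches at the NE would not be listed. How reads with several matches were treated is not given in the sources used here. Subtracting one LAD list from the other and keeping stretches of at least 10 kb gave the deposited DRs with 0 differences. Each of the 4 libraries, 1 per genotype and construct, is a pool, so no test was made. The depth of each library is unknown from the lists.

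Genes were the protein-coding genes of GENCODE vM1 on NCBIM37. Positions are 1-based, and a distance is the difference between the nearest positions. Repeated words are 32-base words found more than once in the genome on either strand. The inverted copy was aligned with minimap2 2.31. Overlaps and counts were made with Python 3.11.15 and pysam 0.24.0, with samtools 1.23.1 for the genome index, numpy 2.4.6, and matplotlib 3.10.9 for the figures. The interval and word steps were tested on simulated data, with 0 errors. Named genes were every member that met a LAD, the members nearest to and farthest from a LAD in each block, and all members of blocks with up to 4; other genes named were chosen after their values were seen. Members and gene lists were chosen with earlier results of these data known. Alternatives were another overlap, the start or coding part only, a window of 100 kb, longer LADs or DRs, DRs of any length, joined LADs, other biotypes, and leaving out genes. Expression and FISH data were not used here.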

Additional observations from a re-analysis of the deposited data

How the results depend on the processing

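With 1 library pair per genotype, an alternative was counted as unchanged when its value stayed within a factor of 1.5, which held for 93 values over the group and its blocks and not for 14. Many of the 93 were counts of 0 that stayed 0, such as PI genes, and the class counts depend on each other. The tally is therefore no measure of how firm the results are. The absence of WT LADs from the genes and the number of IP genes changed most with 2 settings. With a 100 kb window around the middle of a gene, 14 genes met a WT LAD and 33 a KO LAD, giving 20 IP, 5 PP, 34 II and 8 AMB genes, and 5 of the 9 IP genes stayed IP. With LADs joined across gaps of up to 50 kb, 1 gene (Hist4h4) met a WT LAD and was PP, 20 met a KO LAD and 19 were IP, and LADs held 0.07217% of the bases of the blocks in WT and 33.03% in KO, against 0% and 21.32%. For neither setting is a share over all protein-coding genes given, so these counts cannot be called high or low. Leaving out the 6 genes of the inverted copy, chosen after seeing the data, left 5 genes in a KO LAD, all 5 IP. The number of IP genes was 8 when 50% of the span, the start, LADs or DRs of at least 20 kb, or the coding part were asked for (the last chosen after seeing the data), each time without Hist1h2bq (0% of its span with LADs of at least 20 kb, 100% with LADs joined across up to 50 kb), and 11, with Hist1h2ao and Hist1h4m, for LADs joined across gaps of up to 20 kb (also chosen after seeing the data). No paired analysis was possible because the result comes from no test and each group is 1 library.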
